A study of Mus musculus with 70 samples.

Results

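Liver mRNA of 17 male offspring killed in the dark phase at 4 weeks of age was compared between maternal diets. The mice were chosen by their labels, as every 4-week mouse killed at zeitgeber time (ZT) 13, 17 or 21, where lights go on at ZT0 and off at ZT12. They are 17 of the 34 mice measured at 4 weeks and of the 70 in the series. All were wild-type C57BL/6 males. Their mothers ate either a standard chow, AIN-93G (Ctr, 8 mice), or the fat-rich D12492 (HFD, 9 mice), for 5 weeks before mating and through pregnancy. Mothers and pups of both groups were moved to the same chow at delivery, litters were set to 6 pups, and males were weaned onto chow, so no offspring ate the fat-rich diet after birth. There were 2 Ctr mice at ZT13, 3 at ZT17 and 3 at ZT21, and 3 HFD mice at each of these times. The study states that the mice of a group came from different litters and were randomized over the time points. It does not say whether mice of different time points shared a litter. No litter is named in the labels, so litter could not enter any model. The p-values measure the spread between mice and take the mice as independent, even if some were littermates.

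Nocturnal rodents take most of their food in the dark phase, when the liver switches on the synthesis of cholesterol and fatty acids under the transcription factors SREBP2 and SREBP1. Type I interferons signal through transcription factors of the STAT and IRF families, which bind a short DNA element (the interferon-stimulated response element, ISRE) and switch on a large set of antiviral genes. Among these is a cluster on distal mouse chromosome 1 that encodes the PYHIN proteins of the p200 family, which carry a DNA-binding HIN domain, and of which Aim2 is a sensor of cytosolic DNA. Hepatocytes and the immune cells of the liver both respond to interferon.

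Values are CPM, counts scaled to the normalized total of their library, and differences are log2 fold changes of HFD against Ctr with ZT as a factor. Library totals lay between 15867488 and 19828715 counts, with a median of 17942689 in Ctr and 17725125 in HFD mice. Markers of hepatocytes dominated, Alb being at 95085 to 131870 CPM in Ctr mice, and 0 of the 8 hepatocyte markers was at 0 in any mouse. In 4 of the 17 libraries, genes rich in GC were low: rho between the deviation of a gene from its ZT mean and its GC content was -0.63 in the Ctr mouse ZT17 replicate 3, and -0.70, -0.66 and -0.66 in the HFD mice ZT13 replicate 3, ZT17 replicate 2 and ZT21 replicate 3. It lay between 0.32 and 0.53 in the other 7 Ctr mice and between -0.23 and 0.65 in the other 6 HFD mice. Mitochondrial transcripts held 9.46% to 10.3% of the counts in these 4 libraries and 4.80% to 8.17% in the others. The HFD mouse ZT21 replicate 3 carries conflicting labels, since its title places it at 4 weeks and its age field at 16 weeks. Of 328 genes that separated the other 16 mice from the 18 dark-phase mice at 16 weeks by at least 2-fold, 293 were nearer to the 4-week mean in that library, and it was kept at 4 weeks.

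In the dark, interferon-induced genes were mostly higher in HFD than in Ctr offspring and cholesterol genes were lower. The p200 genes and other interferon-stimulated genes were higher by a median of 0.89 (11 genes) and 0.34 (78 genes) on the log2 scale. Genes of cytosolic ribosomal proteins and of nuclear-encoded respiratory chain subunits were mostly higher too, with medians of 0.24 (84 genes) and 0.19 (79 genes). All 25 genes of cholesterol synthesis and uptake were lower, with a median of -0.32. No single gene passed the threshold: of 16668 genes tested, 0 (0%) had an adjusted p below 0.05 by edgeR's quasi-likelihood test, the lowest adjusted p being 0.101. A low p, here an unadjusted p below 0.05, was found for 1885 genes (11.3%), of which 958 were higher (5.75% of those tested) and 927 lower (5.56%). By sign alone, 8662 genes (52%) were higher and 8006 (48.0%) lower. The Wald test of DESeq2 called 188 genes (1.13%).

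The count of called genes moved with the libraries that were fitted. Without the 4 libraries low in GC-rich genes, 142 of 16513 genes (0.860%) passed by edgeR, and 2127 (12.9%) had a low p, 1090 higher (6.60%) and 1037 lower (6.28%). With counts corrected for GC content in each library, 13 genes (0.0780%) passed and 1523 (9.14%) had a low p, 891 higher (5.35%) and 632 lower (3.79%). Leaving out the Ctr mouse ZT17 replicate 3 alone gave 259 called genes, while leaving out any one of the 3 HFD libraries of this kind gave 0. Without the HFD mouse with the conflicting age label, 0 genes passed and 1500 of 16806 had a low p, and the medians of the p200, interferon-stimulated and cholesterol genes were 0.98, 0.35 and -0.28. The fit without the 4 libraries was chosen after seeing the data.

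The ranges of the diets did not overlap for 6 genes. Of the 16668 genes tested, 5 (0.0300%) had every HFD mouse above every Ctr mouse and 1 (0.00600%) had every HFD mouse below. The one below was Fads1, the delta-5 desaturase of polyunsaturated fatty acid synthesis (chr19:10182888-10196870, GRCm38, + strand). It lay at 481, 508 and 561 CPM (lowest, median and highest) in Ctr mice and at 339, 410 and 448 CPM in HFD mice, a log2 fold change of -0.36 (SE 0.0788, unadjusted p = 0.000145, edgeR). Those above were Ost4, a small subunit of oligosaccharyltransferase (0.78 on the log2 scale), Pts, an enzyme of tetrahydrobiopterin synthesis (0.44), Nsrp1, a nuclear splicing regulator (0.41), Lst1, a leukocyte gene (2.70), and Rpl17-ps8, a processed pseudogene (1.83). Ost4 overlaps Agbl5, and Lst1 and Rpl17-ps8 reached at most 1.11 and 1.20 CPM.

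The p200 genes had the largest median of the 20 pathway lists, and among the further gene families only the major urinary proteins had a larger one, 0.93. Of 15 listed genes, 12 were matched by name, 11 had enough counts to test, all 11 were higher in HFD mice, and 10 had a low p against 5.75% of all genes. The exception was Aim2, at 0.65 on the log2 scale (unadjusted p = 0.0726, edgeR). The summed level of the family was 34.9, 45.2 and 64.2 CPM (lowest, median and highest) in Ctr mice and 55.9, 78.2 and 105 CPM in HFD mice, and 7 of the 9 HFD mice lay above the highest Ctr mouse. These genes lie side by side and resemble each other in sequence, so reads may be shared between them, and Mndal overlaps Ifi203.

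Promoter sequences are shown for 4 interferon-stimulated genes with a low p that hold letters of the response element, to show where these lie. They are taken from RefSeq (GRCm38.p6), run from 250 bases before to 50 bases after the start, and are written 5′ to 3′ in the direction of the gene. Capitals mark a match to GAAA, any 2 bases and GAAA again, searched on both strands. All 4 genes are on the minus strand, Ifi211 at chr1:173912997-173913296, Mndal at chr1:173879909-173880208, Oas3 at chr5:120777610-120777909 and Trim30a at chr7:104446076-104446375.
Ifi211: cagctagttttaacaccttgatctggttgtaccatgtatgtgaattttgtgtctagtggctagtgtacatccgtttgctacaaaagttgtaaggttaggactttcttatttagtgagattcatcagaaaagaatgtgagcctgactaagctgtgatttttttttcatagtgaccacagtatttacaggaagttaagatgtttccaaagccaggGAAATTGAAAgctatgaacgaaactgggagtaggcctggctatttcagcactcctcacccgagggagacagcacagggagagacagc
Mndal: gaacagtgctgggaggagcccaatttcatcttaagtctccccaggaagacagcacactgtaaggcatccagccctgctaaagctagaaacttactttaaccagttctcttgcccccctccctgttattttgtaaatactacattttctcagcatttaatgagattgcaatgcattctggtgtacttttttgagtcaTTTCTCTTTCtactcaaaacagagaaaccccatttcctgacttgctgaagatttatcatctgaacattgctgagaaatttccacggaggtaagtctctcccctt
Oas3: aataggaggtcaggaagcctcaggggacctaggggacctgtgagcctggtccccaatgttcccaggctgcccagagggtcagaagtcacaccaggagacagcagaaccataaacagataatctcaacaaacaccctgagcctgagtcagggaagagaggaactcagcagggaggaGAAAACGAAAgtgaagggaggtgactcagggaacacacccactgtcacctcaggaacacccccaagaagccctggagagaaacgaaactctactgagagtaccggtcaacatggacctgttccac
Trim30a: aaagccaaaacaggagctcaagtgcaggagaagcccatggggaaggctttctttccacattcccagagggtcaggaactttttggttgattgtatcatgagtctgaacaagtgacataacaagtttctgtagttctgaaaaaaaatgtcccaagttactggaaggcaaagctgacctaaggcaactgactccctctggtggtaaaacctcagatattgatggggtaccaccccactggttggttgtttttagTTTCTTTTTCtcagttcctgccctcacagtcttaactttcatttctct
The match begins at -37 from the start in Ifi211 and at -75 in Oas3, on the strand of the gene, and at -54 in Mndal and 2 in Trim30a, on the opposite strand. These letters were found in 9 of 11 p200 genes with a promoter in the table (81.8%), in 29 of 61 interferon-stimulated genes (47.5%) and in 10 of 12 interferon-inducible GTPases (83.3%). Over all genes with a promoter in the table they were found in 1079 of 27025 (3.99%), and over all promoters in 1131 of 32851 (3.44%). Among the groups that are not interferon genes, they were found in 1 of 17 cholesterol genes (5.88%), 7 of 64 cytosolic ribosomal genes (10.9%) and 2 of 64 nuclear respiratory chain genes (3.12%). No match was found in Ifi209 or Samd9l, which also had a low p, and Ifi204 had no promoter in the table. Mndal and Trim30a each had a further promoter there, also with a match, that is not shown. A match describes the sequence and is no measure of binding.

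Ifi211 (chr1:173896345-173913046, - strand), a p200 gene without a settled function, was at 0.909, 1.33 and 2.67 CPM in Ctr mice and 1.60, 3.59 and 6.68 CPM in HFD mice. Its log2 fold change was 1.27 (SE 0.268, unadjusted p = 0.000107, edgeR), and 6 of the 9 HFD mice lay above the highest Ctr mouse. Ifi209 (chr1:173630917-173647928, + strand) lay at 1.56, 2.38 and 4.68 CPM in Ctr mice and at 3.21, 5.89 and 8.35 CPM in HFD mice. This was a difference of 1.05 (SE 0.236, unadjusted p = 0.000203, edgeR), with 7 HFD mice above every Ctr mouse.
Mndal (chr1:173849126-173942491, - strand) was at 5.96, 6.97 and 10.1 CPM in Ctr mice and 8.34, 11.2 and 15.0 CPM in HFD mice (0.66, SE 0.151, unadjusted p = 0.00024, edgeR). Ifi204, a p200 protein studied for its part in DNA sensing and differentiation, ranged from 7.12 to 13.3 CPM on Ctr and from 8.72 to 21.3 CPM on HFD, 0.73 higher (unadjusted p = 0.000401). The other members were higher by between 0.64 for Ifi207 and 1.31 for Ifi205. In each of the 3 genes given in full the lower HFD mice lay within the Ctr range.

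**Figure D1:**
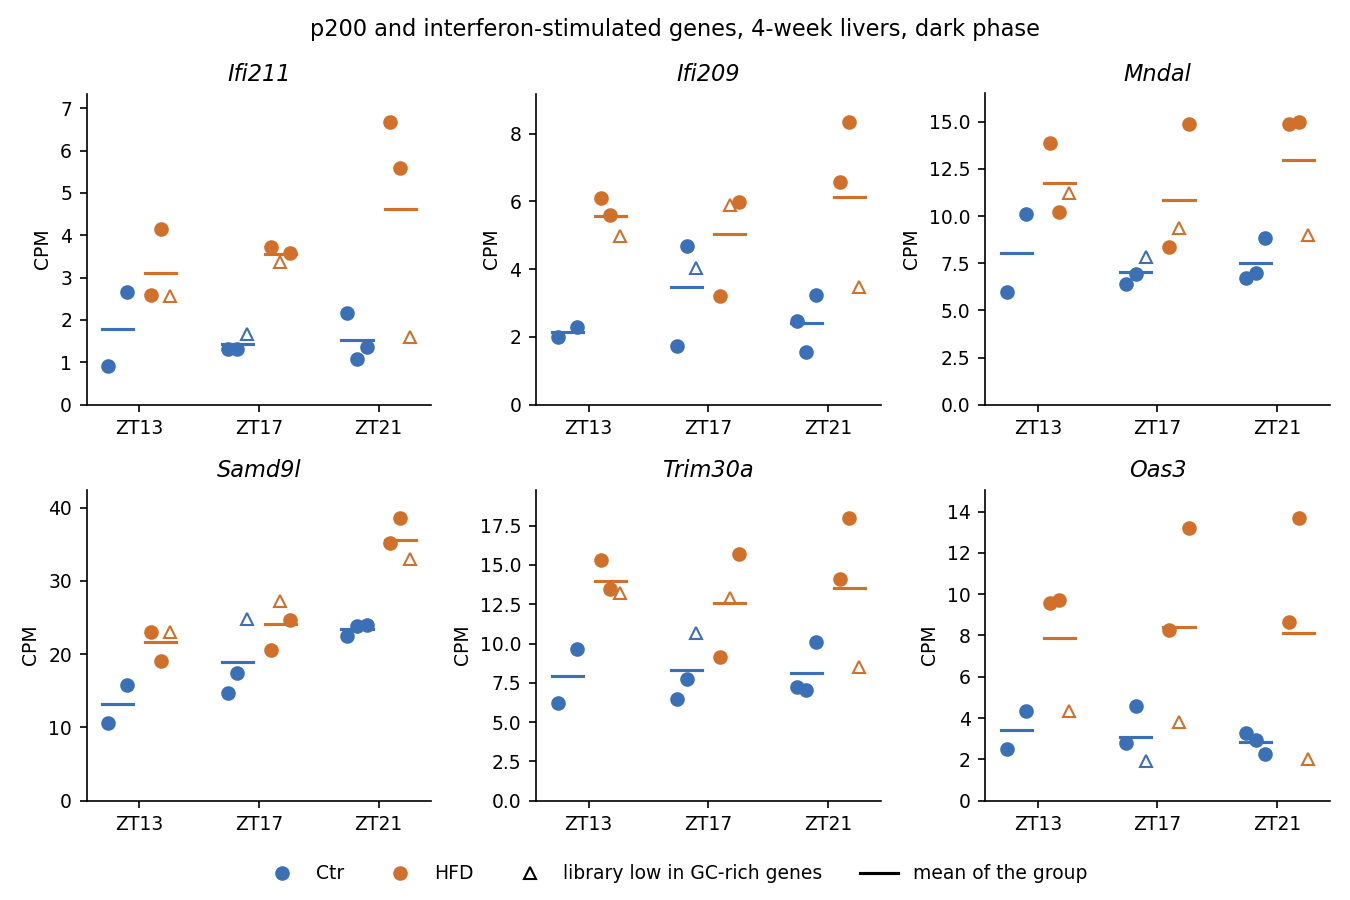
Level of 6 interferon-stimulated genes (CPM, y axis) in each of the 17 mice by ZT (x axis), with Ctr and HFD mice in separate colours, triangles for the 4 libraries low in GC-rich genes and short lines for group means. In Ifi209, 7 of the 9 HFD mice lie above the highest Ctr mouse at 4.68 CPM, and the lowest HFD values overlap the Ctr range.

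Across the 78 interferon-stimulated genes outside the p200 family, 69 were higher in HFD mice and 9 lower, where 52% of all genes were higher. A low p was found for 34, all of them higher, against 5.75% of all genes. DESeq2 called 12 of the 78, against 1.13% of all genes, and 16 passed by edgeR without the 4 libraries low in GC-rich genes, against 0.860%. By role, antiviral effectors had the largest median: 48 of 51 were higher, 28 of them with a low p, with a median of 0.47. Of 17 genes of the ubiquitin, ISG15 and ADP-ribose pathways, 13 were higher and 3 had a low p, with a median of 0.17. The 9 genes below 0 included Trim14 (-0.21), Parp10 (-0.18) and Stat2 (-0.14).
Oas3, a synthase of the 2-5A second messenger that activates RNase L (chr5:120753098-120777661, - strand), was at 1.93, 2.89 and 4.57 CPM in Ctr mice and 2.00, 8.67 and 13.7 CPM in HFD mice. It was higher by 1.40 (SE 0.314, unadjusted p = 0.000256, edgeR), although the lowest HFD mouse lay within the Ctr range. Samd9l, an antiviral and growth-restraining factor, lay at 10.6, 19.9 and 24.8 CPM in Ctr and 19.1, 24.7 and 38.6 CPM in HFD mice (0.54, SE 0.117, unadjusted p = 0.000132). Trim30a, a TRIM protein induced by interferon, lay at 6.19, 7.49 and 10.7 CPM in Ctr and 8.52, 13.5 and 18 CPM in HFD mice (0.71, SE 0.159, unadjusted p = 0.000197). For Trim30a 7 HFD mice lay above every Ctr mouse, for Oas3 6, and for Samd9l 4. Rtp4, a chaperone of receptors with an antiviral role, was higher by 0.57 (unadjusted p = 0.000444).

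Of the 5 STAT and IRF factors that carry the interferon signal, 4 were higher, 2 of them with a low p (median 0.30). Of all genes, 52% were higher, and 5.75% were higher with a low p. Irf9 was higher by 0.30 (unadjusted p = 0.0252, edgeR). Irf7, which amplifies the response, was at 18.2, 38.5 and 78.0 CPM in Ctr and at 19.9, 68.7 and 136 CPM in HFD mice. Its difference of 0.75 had a standard error of 0.383 (unadjusted p = 0.0709). Irf1 differed by 0.25 (unadjusted p = 0.192). Irf7 and Irf9 overlap other genes, Phrf1 and Rnf31.
Of the 5 sensors of nucleic acid, Dhx58 (LGP2) was higher by 0.35 (unadjusted p = 0.0467), while Ddx58 (RIG-I), Ifih1 (MDA5), Zbp1 and Tlr3 lay between -0.01 and 0.20 with p-values of 0.0639 or more. Of the 19 tested receptors, kinases and adaptors of interferon signalling, 10 were higher and 9 lower, with a median of 0.04, where 52% of all genes were higher. The only one with a low p was Tyk2, the kinase of the type I receptor, at -0.30 (unadjusted p = 0.0294, edgeR). A count of 1 in 19 is close to the 5.56% of all genes that were lower at that p.

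Interferon-inducible GTPases, which attack the membranes of vacuoles that hold pathogens, were higher in 19 of 20 cases, against 52% of all genes, and 10 of them had a low p, against 5.75%, with a median of 0.41. Gbp2b lay at 1.19, 3.14 and 4.37 CPM in Ctr and 2.96, 5.35 and 12.2 CPM in HFD mice, 1.04 higher (SE 0.299, unadjusted p = 0.00222, edgeR). Gbp9 differed by 0.59 and Gbp3 by 0.69 (unadjusted p = 0.00252 and 0.00644). The list's median was 0.62 without the 4 libraries and 0.29 with the GC correction. Guanylate-binding proteins form a family of close copies, and Gbp9 overlaps Gbp4 and Gbp8.
Genes of antigen presentation gave smaller counts. Of 20 genes of class I presentation, 13 were higher and 7 lower (median 0.07), and only B2m, the light chain of class I molecules, had a low p, at 0.33 (unadjusted p = 0.0124, edgeR). Of 7 class II genes, 6 were higher with a median of 0.29, and 0 had a low p. Without the 4 libraries low in GC-rich genes the medians were 0.19 for class I, with 6 genes higher at a low p, and 0.55 for class II, with 4. In that fit 6.60% of all genes were higher with a low p. In the light 1 of the 7 class II genes was higher, with a median of -0.54.

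Markers of other cell types were counted in the same way, where 52% of all genes were higher by sign and 5.75% were higher with a low p. The summed level of 10 markers of monocytes and dendritic cells was 3.41, 6.08 and 7.21 CPM in Ctr mice and 7.46, 8.41 and 14.8 CPM in HFD mice. On the mean log2(CPM + 1) scale the same markers overlapped between the diets, the highest Ctr mouse being at 0.734 and the lowest HFD mouse at 0.717. Of these markers, 9 were higher, 3 were at 0 in some mouse, and 1 had a low p. This was Ccr2, the receptor that draws monocytes from the blood, at 0.606, 1.37 and 1.86 CPM in Ctr and 1.63, 2.54 and 4.69 CPM in HFD mice (1.13, SE 0.256, unadjusted p = 0.000226, edgeR). Its ligand Ccl2 lay at 0.0551, 0.201 and 0.323 CPM in Ctr and at 0.219, 0.684 and 1.69 CPM in HFD mice (1.88, unadjusted p = 0.000182).
Markers of Kupffer cells and macrophages summed to 421, 684 and 838 CPM in Ctr and 449, 751 and 996 CPM in HFD mice. Of these 12, 10 were higher, 4 of them with a low p (Adgre1, Vsig4, Cd68 and Lyz2), and 0 was at 0 in any mouse. In whole liver, more or fewer cells of a type and more or less RNA per cell cannot be told apart, and the part of these cells in the interferon result was not tested. Of 12 T and NK cell markers 8 were higher, 1 of them (Gzmb) with a low p, and of 7 tested B and plasma cell markers 2 were higher. Erythroid markers were mostly lower, with summed levels of 202, 519 and 1123 CPM in Ctr and 230, 377 and 580 CPM in HFD mice. Of 7 tested, 6 were lower and 4 had a low p, Alas2, the first enzyme of haem synthesis in red cells, being at -0.44 (unadjusted p = 0.00164, edgeR). Of 6 cholangiocyte markers 5 were higher, and Spp1 had a low p (0.53, unadjusted p = 0.00656, edgeR). Of 6 listed pancreas markers 2 could be tested, 1 higher and 1 lower, and 0 had a low p. Of 6 tested neutrophil markers 4 were higher, 3 of them with a low p. Of 8 stellate cell and fibroblast markers 6 were higher, and Lrat, Dcn and Col3a1 had a low p. Of 8 endothelial markers 2 were higher and 0 had a low p, and of 8 hepatocyte markers 4 were higher.

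Of 33 tested genes of the acute phase and inflammation, 26 were higher and 7 lower, where 52% of all genes were higher. A low p was found for 11, all higher, against 5.75% of all genes, and the median was 0.19. Among the acute phase proteins 17 of 20 were higher, with a median of 0.32 that was 0.20 without the 4 libraries low in GC-rich genes and 0.18 with GC and gene length corrected. Fgb, the beta chain of fibrinogen, lay at 2566, 3033 and 3393 CPM in Ctr and 2985, 3685 and 5726 CPM in HFD mice (0.36, SE 0.103, unadjusted p = 0.0022, edgeR). Orm2, an acid glycoprotein of the acute phase, was higher by 0.86 (unadjusted p = 0.00517), and Cxcl9, a chemokine induced by interferon gamma, by 0.48 (unadjusted p = 0.00896). Of the 13 cytokines, chemokines and their regulators 9 were higher and 4 lower (median 0.08).

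Every one of the 25 genes of cholesterol synthesis and uptake was lower in HFD mice, 10 of them with a low p against 5.56% of all genes, while 48.0% of all genes were lower by sign. Among the 10 were Srebf2, which encodes the activating factor SREBP2, and the enzymes Acat2, Mvk, Fdft1, Sqle, Lss, Tm7sf2, Msmo1 and Dhcr7, which act from the condensation of acetyl-CoA to the reduction of the sterol. Srebf2 lay at 70.8, 99.8 and 115 CPM in Ctr and 36.5, 68 and 93.3 CPM in HFD mice (-0.45, SE 0.138, unadjusted p = 0.0037, edgeR), with 5 HFD mice below every Ctr mouse.
Sqle, squalene epoxidase, lay at 90.9, 216 and 251 CPM in Ctr and 76.0, 138 and 170 CPM in HFD mice (-0.40, SE 0.128, unadjusted p = 0.00479, edgeR). The ranges of the diets overlapped, although the Ctr median lay above the highest HFD mouse. Mvk, mevalonate kinase, had the lowest fold change of the 10 at -0.54 (unadjusted p = 0.00519). The mean log2(CPM + 1) of the 25 genes was 6.26, 7.23 and 7.55 in Ctr and 6.00, 6.72 and 7.20 in HFD mice, so the ranges overlapped. The median difference was -0.33 without the 4 libraries low in GC-rich genes and -0.29 with the GC correction. DESeq2 called 1 of the 25 genes, against 1.13% of all genes. In the promoters of 17 of these genes in the RefSeq table, the letters TCACNCCAC of a sterol response element were found in 1 (5.88%), Hmgcs1, against 1.44% of all genes with a promoter there.

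**Figure D2:**
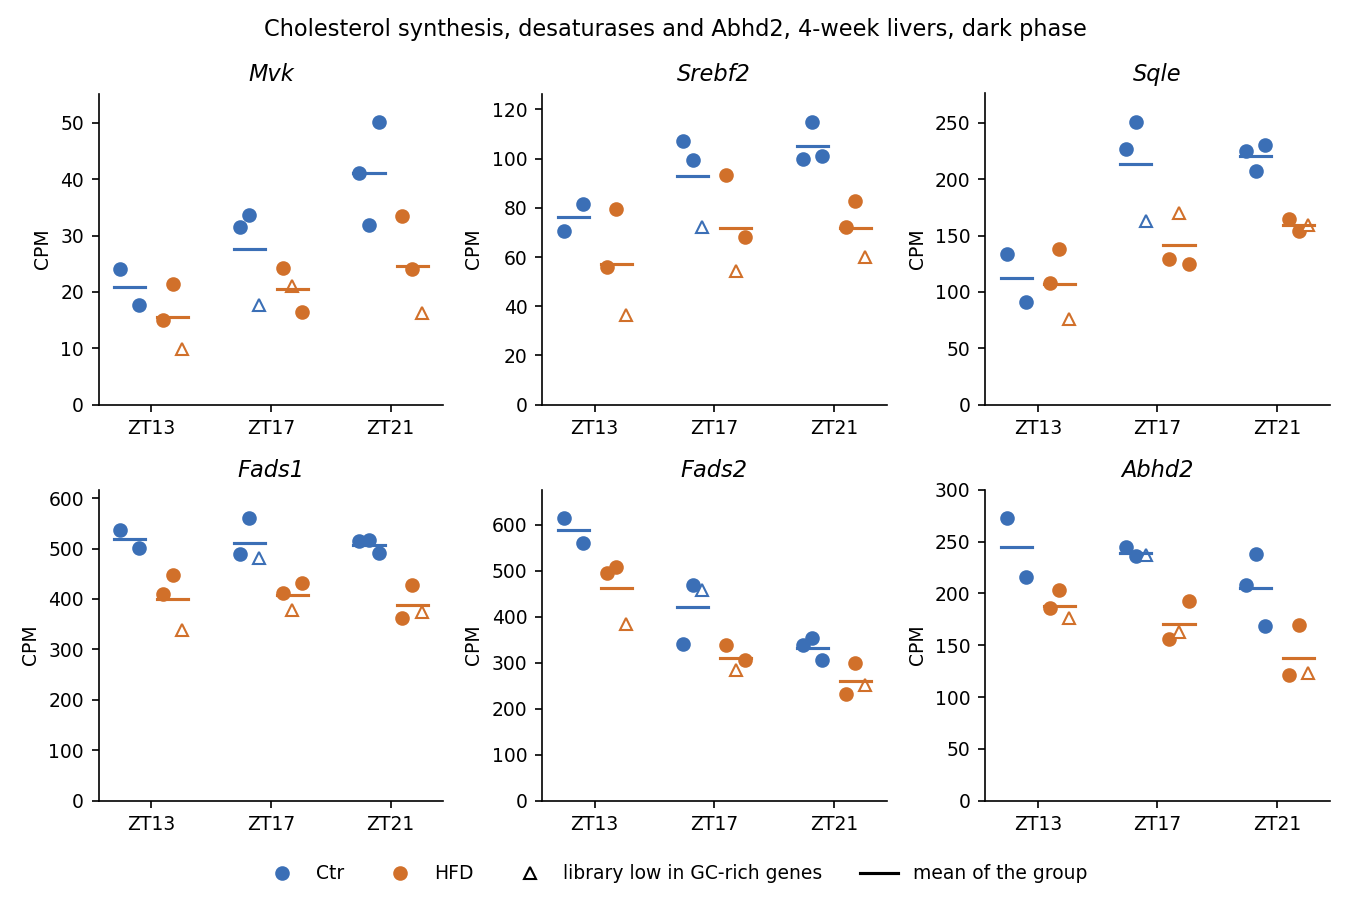
Level of 6 genes of lipid synthesis and hydrolysis (CPM, y axis) in each mouse by ZT (x axis), with diets in separate colours, triangles for the 4 libraries low in GC-rich genes and lines for group means. Fads1 is the gene whose 9 HFD mice all lie below the lowest Ctr mouse, at 481 CPM.

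Among 19 genes of fatty acid synthesis a low p was found for Fads1, Fads2 and Dgat2, all lower, against 5.56% of all genes. Fads2, the delta-6 desaturase next to Fads1 on chromosome 19, was at 306, 405 and 615 CPM in Ctr and 231, 306 and 508 CPM in HFD mice (-0.38, SE 0.0917, unadjusted p = 0.00039, edgeR), with 5 HFD mice below every Ctr mouse. Dgat2, which makes triglyceride, was at -0.27 (unadjusted p = 0.0182). Of the 19 genes 15 were lower, against 48.0% of all genes, with a median of -0.13 that became 0.00 with the GC correction. The core enzymes Fasn (-0.16) and Scd1 (-0.13) had an unadjusted p above 0.05.
Of 27 genes of fatty acid oxidation and ketogenesis, 21 were lower and 6 higher, 5 and 1 of them with a low p (median -0.11), against 5.56% and 5.75% of all genes. Acot1, a cytosolic acyl-CoA thioesterase, was at -0.74 (unadjusted p = 0.000607, edgeR), and Cpt2, of the carnitine shuttle, at -0.22 (unadjusted p = 0.0121). The one higher was Fabp1, the abundant fatty acid carrier of hepatocytes, at 0.62 (unadjusted p = 0.00172).
Outside these lists, the protein-coding genes with a mean of at least 1 CPM and the lowest p among those lower in HFD mice included Abhd2, a lipase, Extl1, a glycosyltransferase-like gene, and Akr1c18, a hydroxysteroid dehydrogenase that degrades progesterone. Abhd2 lay at 169, 237 and 273 CPM in Ctr and 121, 170 and 203 CPM in HFD mice (-0.48, SE 0.0967, unadjusted p = 5.42e-05, edgeR). Extl1 lay at 3.18, 8.21 and 10.5 CPM in Ctr and 1.81, 3.00 and 6.35 CPM in HFD mice (-1.08, unadjusted p = 3.32e-05), and Akr1c18 at 1.5, 4.38 and 11.9 CPM against 0.881, 1.92 and 2.45 CPM (-1.58, unadjusted p = 0.0002). In each of the 3 genes the diets overlapped. Paqr9, Mfsd13a and Atf5, the last a stress-response factor that overlaps Il4i1 and Nup62, were at -0.41, -0.66 and -0.61.

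The 8 protein-coding genes with the lowest p among those higher in HFD mice, at a mean of at least 1 CPM, were Cycs, Tbca, Uqcrb, Mrpl30, Dnajc19, Ost4, Rpl34 and Ifi211, of which none passed the adjusted threshold. Cycs, cytochrome c of the respiratory chain (chr6:50562563-50566538, - strand), was at 49.5, 55.5 and 65.8 CPM in Ctr and 56.6, 75.9 and 107 CPM in HFD mice. It had the lowest p of these 8 genes, at 0.48 (SE 0.0891, unadjusted p = 2.4e-05, edgeR), and 8 HFD mice lay above every Ctr mouse. Uqcrb, a subunit of complex III, was at 19.6, 26.0 and 52.4 CPM in Ctr and 26.5, 48.6 and 71.1 CPM in HFD mice (0.82, SE 0.161, unadjusted p = 4.75e-05), and here the highest Ctr mouse lay above the HFD median.
Mrpl30, of the mitochondrial ribosome, was at 24.1, 30.3 and 36.8 CPM in Ctr and 36.5, 39.9 and 48.9 CPM in HFD mice (0.42, SE 0.0849, unadjusted p = 6.55e-05, edgeR), with 8 HFD mice above every Ctr mouse. Rpl34, of the cytosolic ribosome, was at 43.2, 51.3 and 92.8 CPM against 55.1, 98.6 and 117 CPM (0.67, SE 0.141, unadjusted p = 9.65e-05). Tbca, a tubulin chaperone, Dnajc19, of the mitochondrial import motor, and Ost4 were at 0.85, 0.57 and 0.78.
Against 52% of all genes that were higher and 5.75% that were higher with a low p, the counts in these gene families were as follows. Of 84 cytosolic ribosomal protein genes 75 were higher and 34 had a low p, all of them higher (median 0.24). Of 79 nuclear genes of the respiratory chain 60 were higher and 35 had a low p, again all higher (median 0.19). DESeq2 called 14 genes of each group, against 1.13% of all genes. Without the 4 libraries low in GC-rich genes the medians were 0.32 and 0.17, and with the GC correction 0.29 and 0.23. Of 77 mitochondrial ribosomal genes, 46 were higher (median 0.04), 12 of them and 2 of the lower genes with a low p.
The 13 protein genes of the mitochondrial genome had a median of 0.24 that moved with the libraries: it was 0.00 without the 4 libraries and -0.06 with the GC correction. Only mt-Nd3 had a low p, at 0.74 (unadjusted p = 0.00976, edgeR). Ribosomal protein genes have many processed pseudogenes, and Uqcrb and Dnajc19 overlap Gm10767 and Fxr1.

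**Figure D3:**
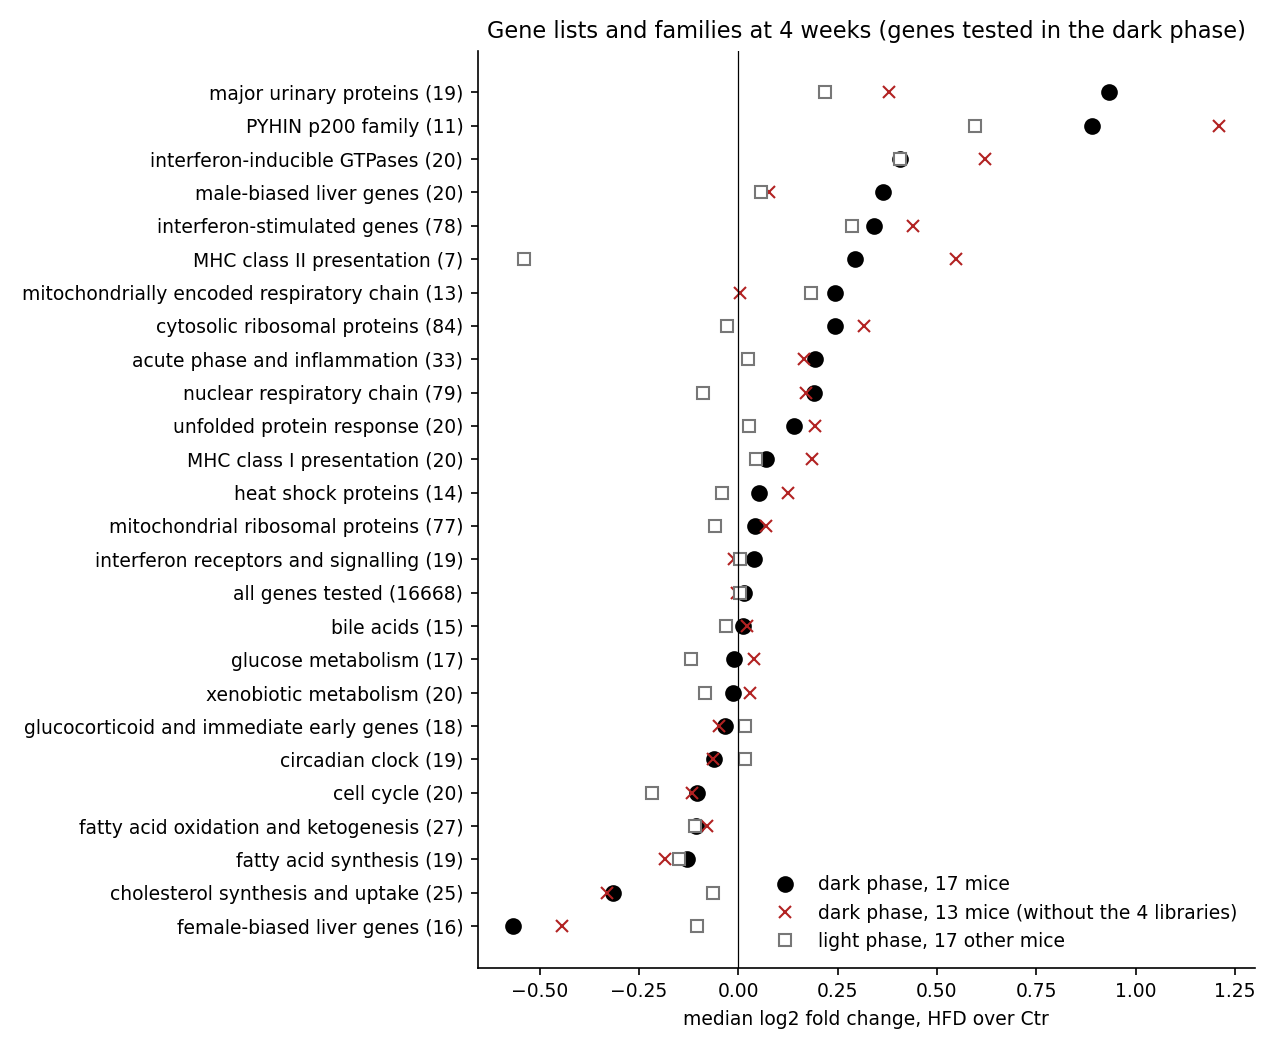
Median log2 fold change of HFD against Ctr (x axis) for each gene list (y axis), in all 17 dark-phase mice, in the 13 mice left without the 4 libraries low in GC-rich genes, and in the 17 light-phase mice. The p200 family lies at 0.89 in the dark and 1.21 without the 4 libraries, and cholesterol synthesis is at -0.32 in the dark against -0.06 in the light.

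Genes that differ between male and female liver were examined because the study asked about sex-biased expression. Of 20 male-biased genes 18 were higher in HFD mice, against 52% of all genes, with a median of 0.36. The 1 with a low p is close to the 5.75% of all genes that were higher at that p. This was Mup3, a major urinary protein, at 2774, 3234 and 6508 CPM in Ctr and 4160, 5067 and 9738 CPM in HFD mice (0.75, SE 0.209, unadjusted p = 0.00196, edgeR). All 19 major urinary protein genes were higher, 5 with a low p, and their median was 0.93, though these are near-identical copies among which reads cannot be placed with certainty. Without the 4 libraries 14 of the 19 were higher and the median was 0.38, and that of the male-biased genes was 0.08.
Of 16 tested female-biased genes 13 were lower, 5 of them with a low p, and 3 were higher, 1 with a low p (median -0.57). Over all genes 48.0% were lower, and 5.56% were lower with a low p. Without replicate 2 the median of the female-biased genes was 0.00 and 1 was lower with a low p, and without replicate 3 they were -0.91 and 8. Over all genes, in either direction, 640 of 16396 had a low p without replicate 2 and 1815 of 16478 without replicate 3. Cux2, a transcription factor of female liver, was at 0.562, 0.965 and 6.17 CPM in Ctr and 0.0498, 0.301 and 2.28 CPM in HFD mice (-1.83, SE 0.472, unadjusted p = 0.000843, edgeR). In each diet 1 mouse at ZT17 stood far above the rest. Cyp17a1, of steroid synthesis, was at -0.85 (unadjusted p = 0.00394) and the transporter Slc22a27 at -1.06 (unadjusted p = 0.0149).

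The clock and the other metabolic lists gave small medians, and their counts stand against 5.75% of all genes that were higher and 5.56% that were lower with a low p. Of 19 clock genes 13 were lower (median -0.06), while with the GC correction 12 were higher (median 0.02). Those with a low p were Per3 at -0.47 (unadjusted p = 0.000639), Dbp at -0.78 (unadjusted p = 0.00136) and Tef at -0.28 (unadjusted p = 0.0062, edgeR). Dbp ranged from 2.21 to 39.2 CPM among the Ctr mice and overlaps Sphk2. Of 15 bile acid genes only Cyp8b1, the sterol 12-alpha-hydroxylase, had a low p, at 214, 286 and 344 CPM in Ctr and 51.6, 193 and 308 CPM in HFD mice (-0.59, unadjusted p = 0.00478).
For glucose metabolism (17 genes) the median was -0.01, for xenobiotic metabolism (20) -0.01, for the cell cycle (20) -0.10, and for glucocorticoid targets and immediate early genes (18) -0.03. The medians of the glucose and xenobiotic lists became 0.04 and 0.03 without the 4 libraries, and that of the glucocorticoid list 0.11 with the GC correction. Over 35 alternatives the cell cycle median lay between -0.37 and 0.13. Of 14 heat shock proteins Hspe1 alone had a low p, at 0.44 (unadjusted p = 0.002). Genes of the unfolded protein response of the endoplasmic reticulum were higher in 18 of 20 cases by a median of 0.14, and only Pdia3 had a low p. Without the 4 libraries 6 heat shock genes and 7 of the unfolded protein response were higher with a low p, against 6.60% of all genes in that fit.

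The diet effect was also fitted at each time point, where 2 or 3 Ctr mice face 3 HFD mice. At ZT13, ZT17 and ZT21 the counts at an adjusted p below 0.05 were 0 (0%), 0 (0%) and 0 (0%) by edgeR, and 2, 0 and 9 by DESeq2. At ZT13 693 genes had a low p (4.16%), 420 higher (2.52%) and 273 lower (1.64%). At ZT17 562 had one (3.37%), 343 higher (2.06%) and 219 lower (1.31%). At ZT21 1224 had one (7.34%), 668 higher (4.01%) and 556 lower (3.34%). The p200 genes had medians of 0.80, 0.53 and 1.07 at the 3 times, with 4, 3 and 9 of 11 genes with a low p. Cholesterol genes had medians of -0.11, -0.32 and -0.45, with 0, 5 and 9 of 25 genes lower at that p. The respiratory chain had 0.03, 0.28 and 0.21.
Whether the effect differed between the times was tested as an interaction of diet with ZT, and 0 genes (0%) passed by edgeR and 0 by DESeq2. A low p was found for 380 genes (2.28%). The medians at the 3 times were therefore not shown to differ. The genes with the lowest interaction p and at least 1 CPM were Gm26588, Gm26917, Gm11437 and Nbl1. In Nbl1, for example, the differences were 1.14, -2.35 and 0.88 at ZT13, ZT17 and ZT21 (unadjusted p = 0.00259, edgeR).

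The 17 light-phase mice of the same age (ZT1, ZT5 and ZT9) are other animals, and served to ask which of these differences are found by day. In them 0 of 16559 genes (0%) passed by edgeR and 499 (3.01%) had a low p, 244 higher (1.47%) and 255 lower (1.54%). By sign 8478 (51.2%) were higher and 8081 (48.8%) lower. The difference between the phases was tested as an interaction: 0 of 16776 genes (0%) passed by edgeR, and 874 (5.21%) had a low p, 400 with a higher value in the dark (2.38%) and 474 with a lower one (2.83%), while the signs divided at 8390 (50.0%) and 8386 (50.0%). The same fits with DESeq2 called 0 genes in the light and 0 for the interaction.
The interferon genes were mostly higher by sign in both phases. In the light all 11 p200 genes were higher with a median of 0.60, 4 of them with a low p against 1.47% of all genes. Of the 78 interferon-stimulated genes 73 were higher and 23 had a low p (median 0.29). The dark minus light medians were 0.26 and 0.02, with 0 p200 genes and 1 interferon-stimulated gene with a low p. The GTPases had medians of 0.41 in the dark and 0.41 in the light, where 10 and 0 of the 20 had a low p.
The cholesterol, ribosomal and respiratory genes were set side by side in the same way, and no gene passed the adjusted threshold for a difference between phases. Cholesterol genes had a median of -0.06 in the light, with 0 of 25 with a low p. Their dark minus light median was -0.25, and 24 of 25 genes were lower in that comparison. Of these 3 had a low p, against 2.83% of all genes, Srebf2 (unadjusted p = 0.0326) and Dhcr7 (unadjusted p = 0.0399, edgeR) being 2 of them. Cytosolic ribosomal genes had -0.03 in the light and 0.26 as dark minus light, where 77 of 84 were positive and 17 had a low p. Nuclear respiratory genes had -0.09 in the light, where 9 were lower with a low p against 1.54% of all genes, and 0.22 as dark minus light, with 72 of 79 positive and 18 with a low p, against 2.38% of all genes. Fads1 was at 0.02 in the light (dark minus light -0.39, unadjusted p = 0.000508), Abhd2 at 0.21 (-0.71, unadjusted p = 9.01e-05) and Cycs at -0.13 (0.60, unadjusted p = 0.000185). These are interaction values of single genes of which none passed the adjusted threshold.

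**Figure D4:**
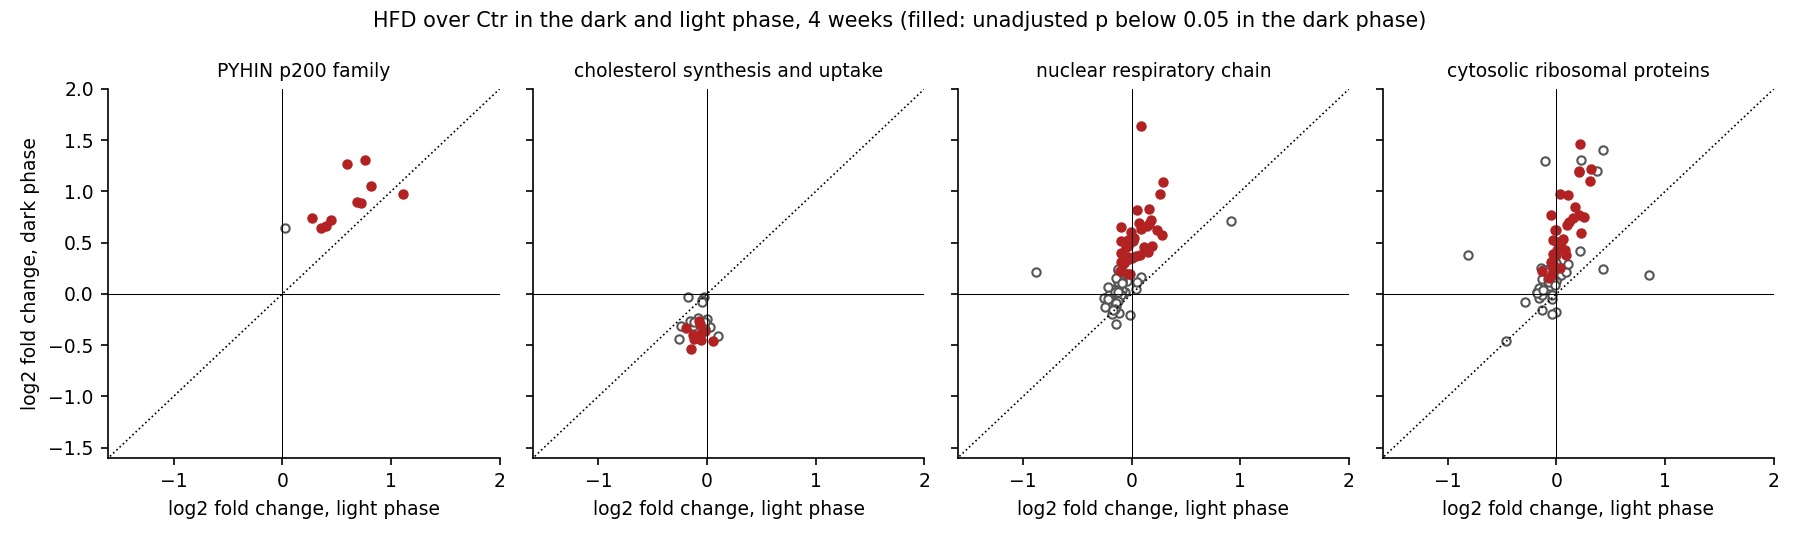
Log2 fold change of HFD against Ctr in the light (x axis, 17 mice) and in the dark (y axis, 17 other mice). Points are the genes of 4 groups, filled where the unadjusted p was below 0.05 in the dark. The 11 p200 genes lie above 0 on both axes. The 25 cholesterol genes lie below 0 on the dark axis, 22 of them also left of 0 on the light axis.

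At 16 weeks, 18 other dark-phase mice (9 Ctr and 9 HFD) were compared in the same way. There 0 of 16986 genes (0%) passed by edgeR and 1043 (6.14%) had a low p, 444 higher (2.61%) and 599 lower (3.53%), with 8665 (51%) higher and 8321 (49.0%) lower by sign. The difference between the ages was tested in 16952 genes. It passed in 16 (0.0944%), and 1861 (11%) had a low p, 693 with a higher value at 16 weeks (4.09%) and 1168 with a lower one (6.89%). By sign, 7838 (46.2%) were higher at 16 weeks and 9114 (53.8%) lower. The ages were counted in separate tables, and DESeq2 called 85 genes.
All 11 p200 genes had a lower difference at 16 weeks, with a median of -0.19 at that age against 0.89 at 4 weeks, and 11 of 11 had a low p for the difference between the ages (median -1.01), against 6.89% of all genes. One of them passed, Mndal, whose log2 fold change was 0.66 at 4 weeks and -0.32 at 16 weeks (difference -1.01, adjusted p = 0.0336, edgeR). Samd9l passed too, with 0.54 and -0.25 (difference -0.82, adjusted p = 0.0162). Of the 78 interferon-stimulated genes 64 were lower at 16 weeks than at 4 weeks, 29 with a low p.
Fads1, Fads2 and Abhd2 passed in the other direction. Fads1 was at -0.36 at 4 weeks and 0.20 at 16 weeks (difference 0.54, adjusted p = 0.00363, edgeR), Fads2 at -0.38 and 0.32 (0.68, adjusted p = 0.0314) and Abhd2 at -0.48 and 0.28 (0.74, adjusted p = 0.0162). Esr1, the oestrogen receptor alpha, went from -0.42 to 0.35 (0.74, adjusted p = 0.0225). Cycs went from 0.48 to 0.07 and Tbca from 0.85 to -0.02. Cholesterol genes had a median of -0.04 at 16 weeks, and 22 of 25 were higher there than at 4 weeks, 4 of them with a low p. The remaining called genes were the pseudogene Gm8995, with the lowest p, and Carmil1, Ighg1, Lst1, Pdcd5, Pnn, Ppig and Prpf39. Ighg1 and Lst1 had means of only 0.17 and 0.41 CPM at 4 weeks, and Ighg1 was not tested at that age alone. Without replicate 1, 2 or 3 the count of 16 became 0, 1 and 53.

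The lists were also set beside library composition, mouse by mouse. The 3 HFD libraries low in GC-rich genes and the 1 Ctr library lie at one end of the GC axis. In the fit of the other 13 mice, chosen after seeing the data, all 11 p200 genes were higher with a low p by edgeR (median 1.21), against 6.60% of all genes, and 7 passed, against 0.860%. In those 13 mice 15 of the 25 cholesterol genes were lower with a low p, against 6.28% of all genes, and 2 passed, and for the respiratory chain 33 genes were higher and 3 lower at that p, with 5 passing. Of the 20 male-biased genes 15 were higher there. The diets still differed in the range of rho with GC content in these 13 mice, and its part in the differences was not tested.

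**Figure D5:**
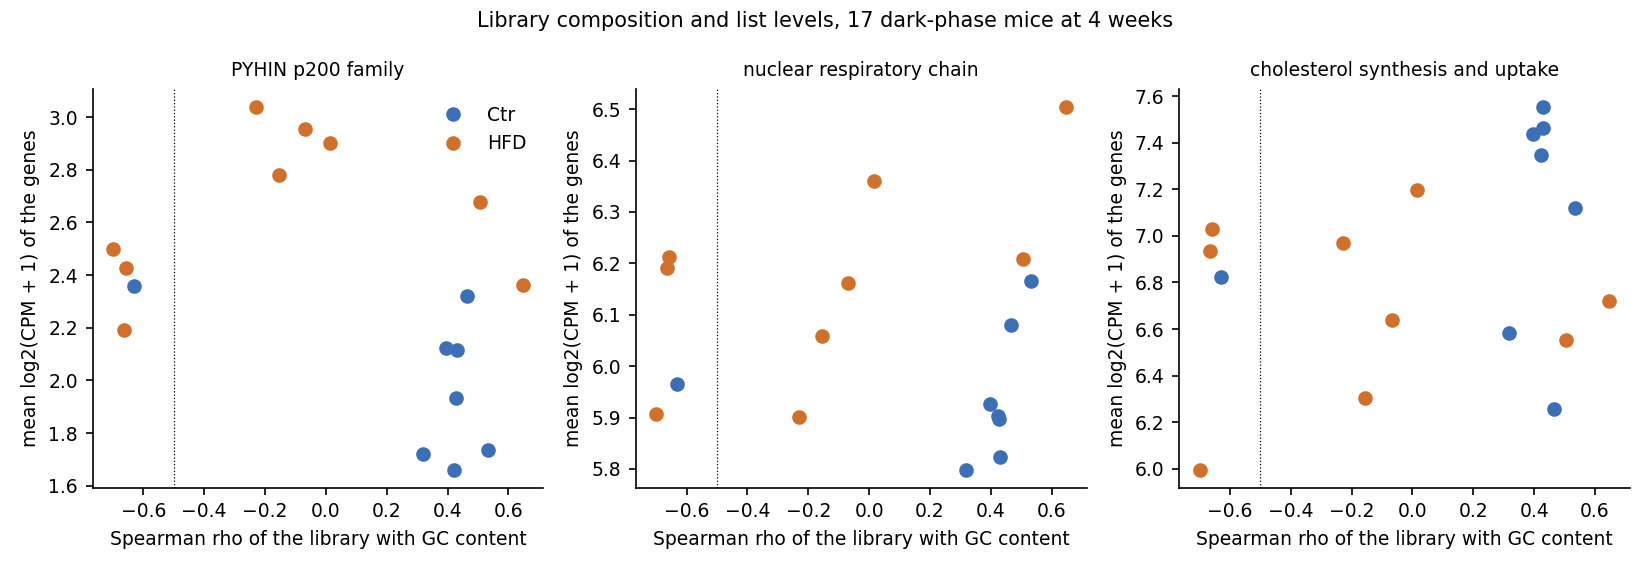
Mean log2(CPM + 1) of 3 gene groups (y axis) in each of the 17 mice against rho of the library with GC content (x axis), with diets in separate colours and a dotted line at -0.5. The 4 libraries left of the line are 3 HFD mice and 1 Ctr mouse, and to the right of it the other 6 HFD mice lie between -0.23 and 0.65.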

How the data were processed

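Poly(A) RNA of frozen liver (RIN above 8) was sequenced by the authors. Reads were mapped with HISAT2 2.0.5 to GRCm38/mm10 and assigned to genes with featureCounts 1.5.0-p3, as the submitters' processing notes give these tools, and per the study's methods uniquely mapped reads were counted on Ensembl annotation. The deposited values are raw counts for 54532 genes, with no normalization. The strand setting is not given in the sources used here, so genes that overlap another gene are uncertain. In the tables, 2 columns match no sample and were not used.

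Mice were grouped by their labels. The 17 dark-phase mice were fitted on their own with edgeR 4.0.16 in R 4.3.3 (TMM, robust quasi-likelihood test, diet plus ZT, 13 residual degrees of freedom), for genes detected (count of 1 or more) in 50% or more of Ctr and of HFD mice. The study used DESeq2 with time as a covariate, and DESeq2 1.42.0 and limma 3.58.1 served as alternatives. Effects at each time point came from a fit of diet within ZT. The interactions with ZT, phase and age were fitted on the 17 dark-phase mice, the 34 mice at 4 weeks and the dark-phase mice of both ages. p-values were adjusted by Benjamini-Hochberg over all genes tested. The GC correction used a loess of log counts on gene GC content in each library, from the longest GENCODE transcript of each gene, and exon overlap came from the same annotation. The biological coefficient of variation was 0.247. CPM values used TMM library sizes, and list means per mouse used log2(CPM + 1). The test was checked on simulated data.

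Genes named are the 8 with the lowest p in each direction among coding genes with a mean of at least 1 CPM, up to 4 genes with the lowest p per list, all sensors and STAT and IRF factors, up to 4 per interaction test, and cell type markers. Genes named outside this rule (those with ranges that do not overlap, Fasn, Scd1, the other genes of an age difference, Aim2 and the further members of short counts) were chosen after their values were seen. A few genes that the rule names are not reported here. The mice and the lists were chosen with earlier results of these data known, so list counts are descriptions, and no p is given over a list. Replicate numbers were not taken as pairs, since correlations of deviations between same-numbered mice lay between -0.29 and 0.44. Promoter sequences came from the RefSeq table of GRCm38.p6 and were matched by gene symbol. The figures were drawn with Python 3.11.15 and matplotlib 3.10.9.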

Additional observations from a re-analysis of the deposited data

Results flagged for a closer look

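In 72 sets of values, each the mice of 1 diet for 1 gene or measure, the gap of the highest or lowest mouse to its neighbour was compared with the range of its group by Dixon's criterion, and 10 passed, where chance alone passes about 1 in 20. The isolated values were high in Ctr mice for Tbca (26.7 CPM, ZT17 replicate 3), Uqcrb (52.4 CPM, ZT17 replicate 1), Uqcrh (116 CPM, ZT17 replicate 3), Mup3 (6510 CPM, ZT17 replicate 3) and Cux2 (6.17 CPM, ZT17 replicate 1). In HFD mice they were high for Ost4 (13.6 CPM, ZT17 replicate 1), Mrpl30 (48.9 CPM, ZT17 replicate 2), Cux2 (2.28 CPM, ZT17 replicate 3) and Ccl2 (1.69 CPM, ZT21 replicate 1). The tenth was rho with GC content in the Ctr mouse ZT17 replicate 3, at -0.63. That mouse held the value for 3 of the genes and for the measure of composition, and 8 of the 9 gene values were from ZT17.

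The effect of maternal diet differed between the ages in the dark, by a test of the difference itself, in 16 genes (edgeR, adjusted p below 0.05). This count became 0, 1 and 53 when replicate 1, 2 or 3 was left out. The differences of log2 fold changes, 16 minus 4 weeks, were -1.73 for Gm8995, -1.01 for Mndal, -0.90 for Tbca, -0.82 for Samd9l and -0.43 for Cycs, and 0.54 for Fads1, 0.68 for Fads2 and 0.74 for Abhd2. Gm8995, an unprocessed pseudogene, was higher at 4 weeks (0.86) and lower at 16 weeks (-0.85).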

How the results depend on the processing

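The dark-phase comparison called 0 genes by edgeR, and also with RLE or upper quartile factors, a filter at 1 CPM, or a fit of all 34 mice. It called 188 with DESeq2, 495 with no filter beyond a count above 0, 355 with limma-voom quality weights, 25 without ZT17, 13 with the GC correction, 3 with GC and gene length corrected, and 142 without the 4 libraries low in GC-rich genes. With the replicate block it called 1 gene, and with the replicate block and the GC correction 37. Leaving out single mice or replicate numbers gave 0 to 259, with 259 without the Ctr mouse ZT17 replicate 3 and 109 without replicate 3. At ZT13 DESeq2 gave 2, the GC correction 1 and leaving out mice 0 to 1. At ZT17 1 gene passed without the 4 libraries, and 0 to 1 with mice left out. At ZT21 DESeq2 gave 9, the fit without the 4 libraries 13, and leaving out mice 0 to 1. The interaction with ZT gave 0 to 1 with mice left out. The 16 genes of the age comparison became 85 with DESeq2, 30 with the replicate block and 98 without the 4 libraries, and 0 to 53 without a replicate number. No fit called a gene in the light or between phases. The fits without the 4 libraries and with gene length were chosen after seeing the data, and the cause of these shifts was not tested.
Over 35 alternatives the p200 median lay between 0.67 and 1.21, that of interferon-stimulated genes between 0.17 and 0.52, and that of cholesterol genes between -0.39 and -0.25. The median of female-biased genes lay between -0.91 and 0.00. Counts of members with an unadjusted p below 0.05 moved more: from 34 to between 10 and 52 for interferon-stimulated genes, from 10 to between 1 and 17 for GTPases, from 10 to between 1 and 20 for cholesterol genes, from 1 to between 1 and 14 for male-biased genes, and from 5 to between 1 and 13 for female-biased genes. The count over all genes at that p moved as well, from 1885 to 629 without ZT21 and to 3482 without the Ctr mouse ZT17 replicate 3. On simulated data for the dark-phase comparison, with 16668 genes, 25 of 50 genes changed 1.5-fold and 47 of 50 changed 2-fold were called. In the same simulation 9 unchanged genes were called, and 0 genes in one without changes. Each gene was simulated independently, whereas in the data the first principal component of deviations from the ZT mean held 40.1% of the variance. These shares therefore do not give the power of the test in the real libraries. Genes below 1 CPM rest on few reads.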
